A study of Mus musculus with 28 samples.

Results

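The genes described here encode 3 fibrillar collagen chains (Col1a1, Col1a2, Col3a1), 2 small proteoglycans (Dcn, Bgn), the collagen-binding glycoprotein SPARC (Sparc) and 2 tissue inhibitors of metalloproteinases (Timp1, Timp3) in mouse liver. They were chosen by name as matrix genes, and each probe set that the array annotation gives to 1 of them was taken. This gave 14 probe sets for 8 genes, of 12422 probe sets without controls for 8251 genes. Liver total RNA of Aag null mice, called Aag here, and of wild-type (WT) mice had been measured on 28 Affymetrix MG-U74Av2 arrays. Aag, also named Mpg, encodes alkyladenine DNA glycosylase, which removes alkylated bases from DNA, and the animals had been given methyl methanesulfonate (MMS), a DNA methylating agent, or left untreated. Aag mice gave 4 untreated arrays and 3, 2, 4 and 3 arrays at 6, 12, 24 and 48 h after MMS. WT mice gave 3 untreated arrays and 2, 3, 2 and 2 arrays at the same times. Dose, strain, sex, age and the kind of Aag allele are not given in the labels used here. Whether each array had its own animal is not stated in the labels, and p-values here rest on the spread between these samples, which may be technical.

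In liver, fibrillar collagens and their small proteoglycans are made chiefly by hepatic stellate cells and portal fibroblasts. Stellate cells store retinoid in the resting liver and turn into collagen-secreting myofibroblasts after injury. Fibres of type I and type III collagen are assembled from secreted chains, are bound by decorin and biglycan, and are removed by metalloproteinases that the TIMP proteins inhibit. Each of these mRNAs can change with the number of cells that make it or with the amount in each cell, and in RNA of whole liver fewer cells of a type and less RNA per cell cannot be told apart.

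The values are log2 signals, quantile normalized over the arrays, and no signal of a probe set is set against that of another. A probe set is called higher or lower where its adjusted p from limma was under 0.05 over all 12422 probe sets. Of the 14 probe sets, 10 lay above the array median on at least 2 arrays. Below it on all 28 arrays were Col1a1 94305_at, Col3a1 102990_at, Col3a1 161984_f_at and Timp1 162107_r_at. Sparc was above the median on 2 arrays and Timp3 on 10 arrays. The other 8 probe sets were above it on all arrays. The suffixes _f and _r mark probe sets that the array's maker designed under relaxed rules.

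Mpg was dim on all arrays, with 2.27 to 2.60 on the Aag arrays and 2.38 to 2.87 on the WT arrays, so the ranges of the genotypes overlapped. The mean of 9 hybridization control probe sets, transcripts added to each sample, was 10.25 to 11.65 on 5 arrays and 6.42 to 9.22 on the other 23. The 5 arrays of this high control set were Aag untreated replicates 3 and 4 and all 3 WT untreated arrays. On them the 3′ minus 5′ signal of Gapdh, a measure of RNA or cRNA integrity, was 0.63 to 0.92, against -0.37 to 0.21 on the other arrays. In WT, MMS and the control set therefore cannot be told apart by leaving arrays out, and values with the set as a term, which is estimated from the 4 Aag untreated arrays, stand beside the results. Cyp2b9, a gene typical of female liver, stood out on 3 arrays (replicate 3 of untreated Aag, and replicates 1 and 2 of Aag at 24 h), where it was at 7.73 to 8.22, against 2.49 to 4.21 elsewhere. This replicate 3 is also 1 of the high control set arrays from which the term is estimated, so the term can carry what goes with high Cyp2b9.

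In the fit without the control set term, type III collagen mRNA was lower in WT liver at each time after MMS, and decorin mRNA was higher at 48 h. The 14 probe sets gave 8 calls in the 56 tests of WT liver after MMS, 2 higher and 6 lower. By time these were 2, 3, 1 and 2 of 14 at 6, 12, 24 and 48 h. Over all probe sets 16.8%, 21.7%, 15.1% and 17.6% were called at these times, of which 7.42%, 10.6%, 6.44% and 7.72% of all probe sets were higher and 9.42%, 11.2%, 8.67% and 9.92% lower, so the matrix probe sets were called about as often as the array as a whole. In Aag liver 0 of 56 tests were called by limma, and at the 4 times 1, 1, 3 and 1 of 14 probe sets had an unadjusted p under 0.05. Over all probe sets 0.314%, 0.129%, 0.499% and 0.233% were called in Aag liver at 6, 12, 24 and 48 h.

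Col3a1 encodes the chain of type III collagen, the fibre of reticular networks. Its bright probe set 98331_at had 5.67, 6.28, 6.47 and 6.27 in untreated Aag livers. After MMS these livers had 5.28, 5.55 and 5.40 at 6 h and 5.42 and 5.43 at 12 h, followed by 5.28, 5.47, 5.73 and 5.26 at 24 h and 6.09, 6.10 and 5.45 at 48 h. In WT livers it had 5.96, 6.27 and 6.83 untreated, next 4.85 and 5.34 at 6 h and 5.16, 5.03 and 5.21 at 12 h, followed by 5.14 and 5.15 at 24 h and 5.42 and 5.12 at 48 h. In WT every treated array was below every untreated one. In Aag this held at 6 h and 12 h, while 1 of 4 arrays at 24 h and 2 of 3 arrays at 48 h lay above the lowest untreated array.

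In WT liver Col3a1 averaged 5.10 ± 0.35 at 6 h after MMS (SD, n = 2) and 6.35 ± 0.44 untreated (SD, n = 3), a 2.38-fold lower signal (log2 difference -1.25, SE 0.24, limma adjusted p = 0.00122). At 12, 24 and 48 h the differences were -1.22 (SE 0.21), -1.20 (SE 0.24) and -1.08 (SE 0.24), with limma adjusted p of 0.000334, 0.00163 and 0.00325. Once the control set was a term in the fit, the 4 differences became -0.86, -0.82, -0.81 and -0.69, with limma adjusted p of 0.226, 0.206, 0.229 and 0.283, and none was called. Array weights ended the calls at 6 h and 48 h (limma adjusted p = 0.467 and 0.0865), a fit of only the groups compared ended that at 6 h (limma adjusted p = 0.187), and leaving out WT 48 h replicate 2 ended that at 48 h (limma adjusted p = 0.0556).

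In Aag liver the Col3a1 differences from untreated were -0.77 (SE 0.20), -0.75 (SE 0.23), -0.74 (SE 0.19) and -0.29 (SE 0.20) at 6, 12, 24 and 48 h, with limma adjusted p of 0.0858, 0.215, 0.0705 and 0.515. Against the 2 untreated Aag arrays of the lower control set alone they were -0.57, -0.55, -0.54 and -0.10, with limma adjusted p of 0.291, 0.451, 0.258 and 0.961. Those values compare arrays of 1 control set and had the same sign as in WT at each time. The difference between the responses, Aag minus WT, was 0.79 (SE 0.31) at 48 h and was not called (limma adjusted p = 0.204).

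The other probe sets of Col3a1 were dim. Probe set 102990_at was called lower in WT at 6 h, with 1.73 ± 0.17 after MMS (SD, n = 2) and 2.22 ± 0.24 untreated (SD, n = 3), a difference of -0.49 (SE 0.14, limma adjusted p = 0.0232). That call ended without WT untreated replicate 1 or without WT 6 h replicate 2 (limma adjusted p up to 0.147). It also ended with array weights, with only the groups compared and with the control set as a term, which gave -0.21 (limma adjusted p = 0.659, 0.508 and 0.672). Probe set 161984_f_at had no call in any comparison. Over the 28 arrays the bright probe set correlated with them at 0.27 and 0.20, so a single probe set carries most of what is said here of Col3a1.

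By mean level of 98331_at the groups ran from WT untreated and Aag untreated at the top through Aag at 48, 24, 12 and 6 h to WT at 48, 24, 12 and 6 h. Each neighbouring pair in that order overlapped in its arrays.

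**Figure D1:**
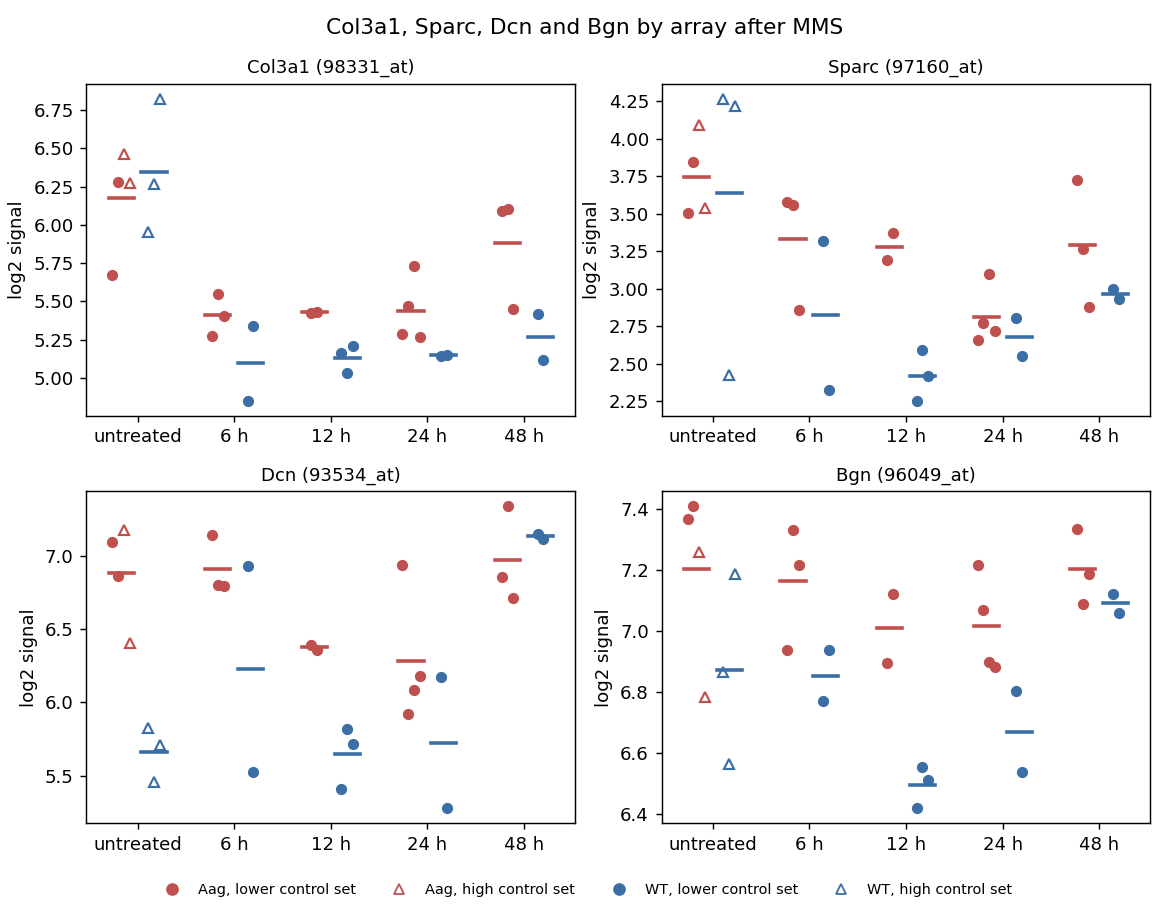
Log2 signal (vertical axes) of Col3a1 98331_at, Sparc, Dcn and Bgn 96049_at in each array by time after MMS (horizontal axes), with Aag in red left of WT in blue, bars at group means and open triangles for arrays of the high control set. WT Col3a1 lies at 5.42 or less on every treated array and at 5.96 or more on every untreated one, and WT Dcn reaches 7.12 and 7.15 at 48 h.

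Sparc encodes a secreted glycoprotein that binds collagen and regulates how its fibres assemble. It had 3.51, 3.85, 4.09 and 3.54 in untreated Aag livers. After MMS these livers had 3.58, 3.56 and 2.86 at 6 h and 3.19 and 3.37 at 12 h, followed by 2.66, 2.77, 3.10 and 2.72 at 24 h and 3.72, 3.26 and 2.88 at 48 h. In WT livers it had 4.27, 2.43 and 4.22 untreated, next 3.32 and 2.33 at 6 h and 2.26, 2.59 and 2.42 at 12 h, followed by 2.81 and 2.56 at 24 h and 3.00 and 2.93 at 48 h. WT untreated replicate 2 lay far below the other 2 untreated WT arrays, among the treated ones, while the Aag 24 h arrays were all below the untreated Aag arrays.

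In WT at 12 h Sparc averaged 2.42 ± 0.17 after MMS (SD, n = 3) and 3.64 ± 1.05 untreated (SD, n = 3). The difference of -1.22 (SE 0.34, limma adjusted p = 0.0133) was called. At 6, 24 and 48 h the WT differences were -0.81 (SE 0.38), -0.96 (SE 0.38) and -0.67 (SE 0.38), with limma adjusted p of 0.146, 0.0927 and 0.237. Without WT untreated replicate 2 Sparc was called at these times too, at -1.42, -1.56 and -1.28, whereas without WT untreated replicate 1 or 3 or without WT 12 h replicate 1 the 12 h call was lost (limma adjusted p up to 0.0865). Fitted with the control set term, the 12 h difference was -1.08 (limma adjusted p = 0.355), and a fit of only the groups compared also ended the call (limma adjusted p = 0.0885).

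In Aag liver the lowest mean of Sparc was at 24 h, with 2.81 ± 0.20 after MMS (SD, n = 4) and 3.75 ± 0.28 untreated (SD, n = 4). This difference of -0.93 (SE 0.29, limma adjusted p = 0.154) was not called, and it was -0.86 (limma adjusted p = 0.136) against the untreated arrays of the lower control set. Without WT untreated replicate 2, which enters the shared estimate of spread, it was called (limma adjusted p = 0.0359). At 12 h the 2 Aag arrays lay above the 3 WT arrays, and their difference of 0.86 (SE 0.38) had a limma adjusted p of 1. In the order of group means the neighbours overlapped in their arrays, except Aag 12 h and WT 48 h.

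Col3a1 and Sparc were called lower in WT at 12 h without the control set term, and the probe sets of Col1a2 were not called. The sequences before the transcript starts of these genes are shown for comparison. They are 250 bases each from the RefSeq promoter table for GRCm38.p6, which held 6 of the 8 genes. Capitals mark CAGAC or its reverse complement GTCTG, the core that SMAD proteins of the TGF-beta pathway bind.
Col3a1, chr1:45311288-45311537, plus strand: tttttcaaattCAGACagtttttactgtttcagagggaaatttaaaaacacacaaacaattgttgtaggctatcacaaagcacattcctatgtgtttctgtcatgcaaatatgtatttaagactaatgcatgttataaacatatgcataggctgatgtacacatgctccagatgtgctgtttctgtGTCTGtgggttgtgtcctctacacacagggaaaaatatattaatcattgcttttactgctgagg
Sparc, chr11:55420081-55420330, minus strand: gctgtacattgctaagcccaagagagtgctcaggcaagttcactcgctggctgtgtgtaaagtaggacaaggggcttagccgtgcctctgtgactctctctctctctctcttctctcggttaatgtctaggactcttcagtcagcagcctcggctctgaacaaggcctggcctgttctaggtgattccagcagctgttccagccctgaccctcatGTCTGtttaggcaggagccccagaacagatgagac
Col1a2, chr6:4505368-4505617, plus strand: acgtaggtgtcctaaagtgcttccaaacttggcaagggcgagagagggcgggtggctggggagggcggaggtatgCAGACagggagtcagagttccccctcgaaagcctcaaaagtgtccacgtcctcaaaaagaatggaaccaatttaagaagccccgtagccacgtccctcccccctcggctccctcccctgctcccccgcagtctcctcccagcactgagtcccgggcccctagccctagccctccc
CAGAC was found on either strand in Col3a1 at 239 and 64 bases before the start, in Sparc at 35 and in Col1a2 at 175. It occurs in 42.2% of 32851 promoters of this length, so its presence does not set these genes apart. CCAAT, searched on both strands and present in 33.8% of promoters, was found in Col1a2 and Timp1. TATAAA, present in 12.4%, was found in Col3a1, and TGANTCA, present in 6.75%, was in none of the 6. A match describes letters only.

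Dcn encodes decorin, a small proteoglycan that binds collagen fibres and TGF-beta. It had 7.09, 6.86, 7.18 and 6.41 in untreated Aag livers. After MMS these livers had 7.14, 6.80 and 6.79 at 6 h and 6.39 and 6.36 at 12 h, followed by 6.94, 5.92, 6.08 and 6.18 at 24 h and 6.85, 7.34 and 6.71 at 48 h. In WT livers it had 5.82, 5.46 and 5.71 untreated, next 6.93 and 5.53 at 6 h and 5.41, 5.82 and 5.72 at 12 h, followed by 6.17 and 5.28 at 24 h and 7.15 and 7.12 at 48 h. Decorin mRNA was thus low in WT liver untreated and at 12 h, high on both WT arrays at 48 h, and divided between the 2 WT arrays at 6 h.

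In WT at 48 h Dcn averaged 7.13 ± 0.02 after MMS (SD, n = 2) and 5.66 ± 0.19 untreated (SD, n = 3), a 2.77-fold higher signal (log2 difference 1.47, SE 0.33, limma adjusted p = 0.00366). The same difference with the control set term was 1.28 (SE 0.50, limma adjusted p = 0.164), and array weights also ended the call (limma adjusted p = 0.0863). Both of these WT 48 h arrays belong to the lower control set and lay above the other treated WT arrays. Their hybridization control means, 7.55 and 7.19, were low within that set. WT 6 h replicate 1, with Dcn at 6.93, had the lowest such mean of all arrays, 6.42. High Dcn also occurred at a higher mean, as on Aag 48 h replicate 2 (Dcn 7.34, mean 8.20). The part of array processing in these Dcn values was not tested. In WT, Dcn at 48 h against 6 h differed by 0.91 (SE 0.36, limma adjusted p = 0.546). Without WT 6 h replicate 1 that later difference was 1.61 and was called (limma adjusted p = 0.0141). Without WT 6 h replicate 2, Dcn was called higher in WT at 6 h (1.26, limma adjusted p = 0.0109) and lower at 12 h than at 6 h (-1.28, limma adjusted p = 0.0454).

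In untreated liver Dcn averaged 6.89 ± 0.35 in Aag (SD, n = 4) and 5.66 ± 0.19 in WT (SD, n = 3), a 2.33-fold higher signal in Aag (log2 difference 1.22, SE 0.28, limma adjusted p = 0.00753). All 4 Aag arrays lay above all 3 WT arrays, which are also the reference of the Dcn call in WT at 48 h. The untreated Dcn difference was 1 call in the 70 tests of Aag against WT. Over all probe sets 9.36% were called in untreated liver, and 0.0483%, 0.00805%, 0% and 0% at 6, 12, 24 and 48 h. The Dcn difference was 1.13 (SE 0.34) with the control set as a term (limma adjusted p = 0.055). Within the high control set it was the same 1.13 (SE 0.34, limma adjusted p = 0.0641). Both values rest on Aag untreated replicates 3 and 4 against the 3 WT untreated arrays, so they are 1 estimate and not separate checks. Array weights gave a limma adjusted p of 0.22, and without the 3 arrays with high Cyp2b9 the difference was 1.12 (limma adjusted p = 0.018).

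After MMS the Dcn differences between Aag and WT were 0.69 (SE 0.33), 0.73 (SE 0.33), 0.56 (SE 0.31) and -0.17 (SE 0.33) at 6, 12, 24 and 48 h, each with a limma adjusted p of 0.999 or 1. In Aag liver Dcn after MMS differed from untreated by 0.03, -0.51, -0.60 and 0.08 at these times, with limma adjusted p of 0.984, 0.639, 0.31 and 0.916. The difference between the 48 h responses, Aag minus WT, was -1.39 (SE 0.43, limma adjusted p = 0.0973) and was not called, but without either WT 6 h array it was (limma adjusted p = 0.0347 and 0.0346). The 0 of 56 calls in tests of this kind stood against 0.7%, 0.572%, 0.564% and 1.8% of all probe sets at 6, 12, 24 and 48 h, and 1, 0, 0 and 2 of 14 had an unadjusted p under 0.05. In the order of Dcn group means, from WT 48 h through Aag 48 h, 6 h, untreated, 12 h and 24 h to WT 6 h, 24 h, untreated and 12 h, the neighbours overlapped except Aag untreated and Aag 12 h.

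**Figure D2:**
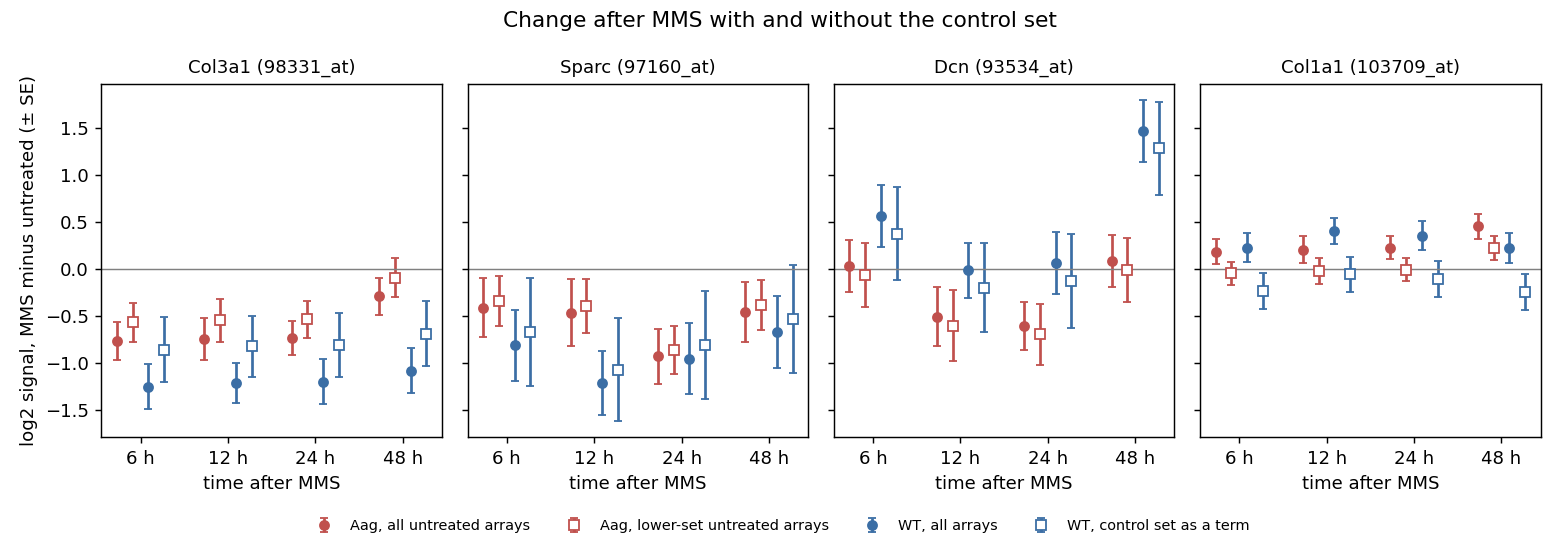
Change in log2 signal after MMS (MMS minus untreated, ± SE) of Col3a1 98331_at, Sparc, Dcn and Col1a1 103709_at against time, with Aag in red and WT in blue. Filled circles are the fit over all arrays, and open squares use lower-set untreated Aag arrays for Aag and the control set as a term for WT. Col3a1 in WT moves to -0.86 at 6 h with the term, and Col1a1 in WT at 12 h moves to -0.060.

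Bgn encodes biglycan, the other small proteoglycan of collagen fibres. Probe set 96049_at had 7.37, 7.41, 7.26 and 6.78 in untreated Aag livers and 6.86, 6.56 and 7.18 in untreated WT livers. At 12 h it had 6.90 and 7.12 in Aag and 6.42, 6.55 and 6.51 in WT. At 12 h both Aag arrays were above the WT arrays, while the untreated groups overlapped.

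Over the other times the Bgn 96049_at group means were 7.16, 7.02 and 7.20 in Aag and 6.85, 6.67 and 7.09 in WT at 6, 24 and 48 h. The Aag minus WT difference was 0.33 (SE 0.15, limma adjusted p = 0.185) untreated and 0.51 (SE 0.18, limma adjusted p = 1) at 12 h. Without Aag untreated replicate 4 the untreated difference was 0.47 and was called (limma adjusted p = 0.0393). WT at 12 h was below WT untreated on each array, with a difference of -0.38 (SE 0.16, limma adjusted p = 0.102), which was -0.53 and called without WT untreated replicate 2 (limma adjusted p = 0.0315). Probe set 162347_f_at had group means of 5.34 to 5.64 and no call, but without WT 6 h replicate 1 it was called higher in WT at 6 h (0.50, limma adjusted p = 0.0425).

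Type I collagen is built from the chains of Col1a1 and Col1a2, and its mRNAs did not show the lower WT values seen for Col3a1. Col1a1 103709_at had 6.24, 6.15 and 6.10 in Aag livers at 48 h after MMS, against 6.09, 5.79, 5.42 and 5.53 in untreated Aag livers. It had 6.09, 6.06 and 5.93 in WT livers at 12 h after MMS, against 5.75, 5.64 and 5.48 in untreated WT livers. The WT 12 h arrays and the Aag 48 h arrays each lay above the untreated arrays of their genotype.

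The WT difference at 12 h was 0.40 (SE 0.14, limma adjusted p = 0.0416) and was called, while that at 48 h in Aag was 0.45 (SE 0.13, limma adjusted p = 0.12) and was not. With the control set as a term the WT 12 h difference was -0.060 (limma adjusted p = 0.926), so its sign turned, and the call was lost in 5 of 6 fits with 1 array left out, except that without WT untreated replicate 1. Array weights and a fit of only the groups compared ended it too (limma adjusted p = 0.124 and 0.0629). The dim probe set 94305_at had group means of 3.30 to 3.65 and no call.

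Col1a2 161156_r_at had 7.11, 7.12 and 7.13 in Aag livers at 48 h after MMS, against 6.96, 6.79, 6.34 and 6.19 in untreated Aag livers. In WT livers it had 6.42, 6.75 and 6.31 untreated, 6.17 and 7.95 at 6 h, and 7.69 and 6.48 at 48 h. The pairs of WT arrays at 6 h and 48 h were far apart, and WT differences from untreated of 0.56, 0.66, 0.48 and 0.59 at 6, 12, 24 and 48 h (SE 0.34 to 0.38) were not called. The Aag differences at these times were 0.24, 0.35, 0.40 and 0.55 (SE 0.29 to 0.36), with limma adjusted p of 0.824, 0.817, 0.598 and 0.434. Probe set 101130_at had group means of 4.32 to 4.71 and no call, and over the 28 arrays the 2 probe sets correlated at 0.28.

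Timp1 encodes an inhibitor of metalloproteinases that is induced in injured liver. Probe set 101464_at had 7.35, 7.45 and 7.35 in Aag livers at 48 h after MMS, against 7.63, 7.01, 6.67 and 6.77 in untreated Aag livers. It averaged 7.07 ± 0.19 in WT livers at 48 h (SD, n = 2), against 7.18 ± 0.21 in untreated WT livers (SD, n = 3). Treated and untreated arrays overlapped in both genotypes, and group means ran only from 7.02 to 7.38 with no call. At 48 h the 3 Aag arrays lay above both WT arrays, by 0.31 on average (SE 0.24, limma adjusted p = 0.999).

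Timp3 encodes the inhibitor that stays bound to the matrix. It had 3.64, 3.91, 5.17 and 4.41 in untreated Aag livers and 4.14, 3.97 and 3.88 in untreated WT livers. The highest value belonged to Aag untreated replicate 3, an array of the high control set with high Cyp2b9. Group means ran from 3.78 to 4.28 with no call. In the fit with the control set term, Timp3 was called higher in untreated Aag than in untreated WT liver (0.79, SE 0.21, limma adjusted p = 0.0299) and higher at 48 h in WT (1.19, SE 0.31, limma adjusted p = 0.0352). Without the 3 arrays with high Cyp2b9 the untreated difference was -0.01 (limma adjusted p = 0.974).

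**Figure D3:**
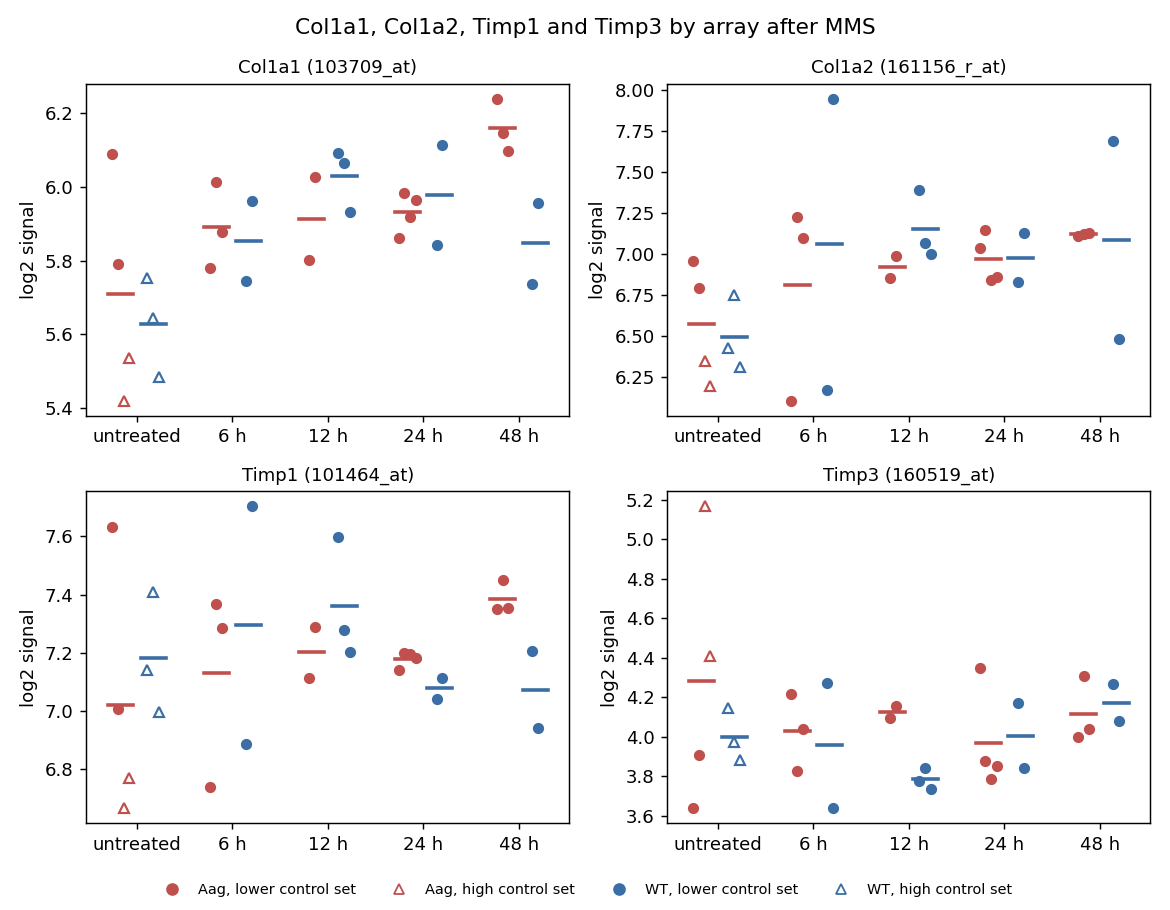
Log2 signal (vertical axes) of Col1a1 103709_at, Col1a2 161156_r_at, Timp1 101464_at and Timp3 in each array by time after MMS (horizontal axes), with Aag in red left of WT in blue, bars at group means and open triangles for arrays of the high control set. Aag Col1a1 is at 6.10 to 6.24 on the 48 h arrays, the 2 WT arrays of Col1a2 at 6 h lie at 6.17 and 7.95, and Timp3 of Aag untreated replicate 3 stands at 5.17.

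Later times were also set against 6 h within each genotype. None of the 84 tests was called by limma, where 0.0161%, 0.177% and 0.29% of all probe sets were called in WT at 12, 24 and 48 h, and 0.00805%, 0.0242% and 0.0403% in Aag. An unadjusted p under 0.05 was reached by 0, 0 and 1 of 14 in WT and by 0, 1 and 1 in Aag.

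The 14 probe sets did not vary as a single group. After group means were removed, Col1a2 161156_r_at and Timp1 101464_at correlated at 0.84 over the 28 arrays, Col1a1 103709_at and Timp1 at 0.74, and Bgn 162347_f_at and Col1a2 161156_r_at at 0.74. Dcn correlated at 0.50 with Timp3 and at 0.43 with Sparc. Timp3 ran against Col1a1 103709_at at -0.74 and against Timp1 at -0.66. Col3a1 98331_at correlated at 0.57 with Col1a2 101130_at and not with its own dim probe sets (-0.21 and -0.23). These are descriptions, since the arrays share processing, control set and RNA quality.

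**Figure D4:**
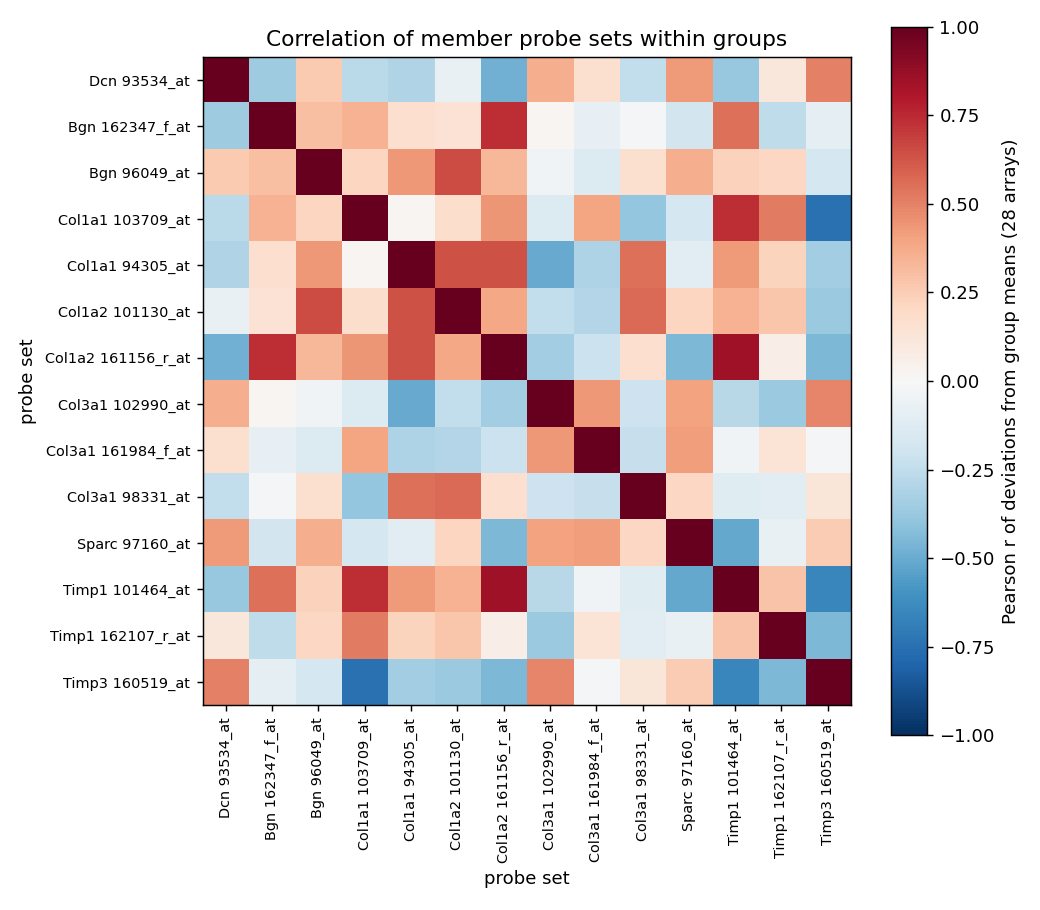
Pearson correlation of each pair of the 14 probe sets, over deviations of the 28 arrays from their group means, with the same probe sets along both axes and red for positive and blue for negative values. Col1a2 161156_r_at with Timp1 101464_at is the deepest red pair at 0.84, and Col1a1 103709_at with Timp3 the deepest blue at -0.74.

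The profile of the collagens was taken as the mean of the standardized values of the 7 collagen probe sets over 28 arrays. The genes outside the 8 with the highest correlation to it were Adcy2 (0.71), Fbxo6 (0.70) and Lat (0.69), followed by Vamp7, Mtf1, Igfbp3, Phxr4, Rtn3, Nppa and Usf1 down to 0.67. The 7 probe sets themselves correlated with their own mean at 0.06 to 0.68.

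Other matrix genes called in WT were more often lower than higher after MMS, and few of these calls held with the control set as a term. The share of all probe sets called with the term is not given here, so this loss is not a result about matrix genes. A call could also be lost while the difference grew. Col18a1 at 12 h was at -0.66 without and -0.81 with the term (limma adjusted p = 0.00546 and 0.0968). Among 26 other collagen genes measured, 4, 7, 6 and 5 were lower and 0, 1, 0 and 0 higher at 6, 12, 24 and 48 h, while the control set term left 1 lower and 0 higher at each time. Among 14 genes of collagen processing and cross-linking 4, 4, 4 and 5 were lower and 0 higher at each time, and the term left 0, 1, 1 and 1 lower. The share of all probe sets that were lower ran from 8.67% to 11.2%. The median log2 differences of the other collagens were -0.09, -0.03, -0.06 and -0.12, against 0.01, 0.03, 0.02 and 0.02 for all probe sets.

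At 12 h Col4a1, a chain of basement membrane collagen, averaged 4.35 in WT after MMS and 5.25 in WT untreated (-0.91, SE 0.15, limma adjusted p = 0.00023). Serpinh1, the chaperone of procollagen, averaged 3.55 and 4.38 in the same groups (-0.82, SE 0.13, limma adjusted p = 0.000101). Fmod, a collagen-binding proteoglycan, averaged 4.26 and 5.87 (-1.61, SE 0.28, limma adjusted p = 0.000341). Mmp13, a collagenase whose probe set was dim and did not pass the brightness rule, averaged 2.06 and 3.08 (-1.02, SE 0.12, limma adjusted p = 6.84e-06).

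With the control set as a term these WT 12 h differences were -1.07 for Col4a1 (limma adjusted p = 0.0176), -0.96 for Serpinh1 (limma adjusted p = 0.00986), -1.12 for Fmod (limma adjusted p = 0.199) and -0.75 for Mmp13 (limma adjusted p = 0.0271). In Aag at 12 h the differences were -0.23 for Col4a1, -0.26 for Serpinh1, -0.92 for Fmod and -0.17 for Mmp13, and none was called. The difference between the 12 h responses, Aag minus WT, was called for Mmp13 (0.85, SE 0.18, limma adjusted p = 0.0223) and not for Col4a1, Serpinh1 or Fmod. With the control set term the 12 h Mmp13 value was 0.71 (limma adjusted p = 0.079). Mmp13 was also called at 6, 24 and 48 h (1.04, 1.07 and 0.92). The term kept these calls (limma adjusted p = 0.0175, 0.0121 and 0.0268). At 48 h Serpinh1 (0.77), Col4a2 (0.88) and the dim probe set of Adamts1 (0.62) were called too. Of these only Adamts1 was lost with the term (limma adjusted p = 0.0594). All rest on the WT untreated arrays. Over all probe sets 0.7%, 0.572%, 0.564% and 1.8% were called at 6, 12, 24 and 48 h.

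Among 34 matrix glycoproteins 3, 5, 4 and 3 were lower and 0, 2, 0 and 2 higher in WT at 6, 12, 24 and 48 h. Of all probe sets 9.42%, 11.2%, 8.67% and 9.92% were lower and 7.42%, 10.6%, 6.44% and 7.72% higher at these times. The 3 of 34 lower at 6 h and 48 h did not exceed this share, and the same shares stand beside the lists that follow. The lower glycoproteins included Fn1 (fibronectin), with WT differences of -0.57, -0.50, -0.69 and -0.90 at these times, each called. The control set term gave -0.27, -0.20, -0.39 and -0.60 for Fn1 (limma adjusted p = 0.603, 0.724, 0.391 and 0.147), and 0 of the 34 were then called at any time. Fn1 was also called lower in Aag at 6 h (-0.72, SE 0.13, limma adjusted p = 0.024), a call lost with the term (-0.57, limma adjusted p = 0.189), and it alone was called among the matrix and stellate cell lists in Aag liver after MMS. Among 20 other proteoglycans 1, 2, 4 and 1 were lower and 0, 1, 1 and 0 higher, and with the term 0 were called. Among 29 proteases and inhibitors 2 were lower at each time and 1, 2, 1 and 2 higher, and the term left 0, 1, 1 and 1 lower and 0 higher. Among 28 genes of TGF-beta signalling 4, 5, 5 and 4 were lower and 1, 0, 0 and 1 higher, and the term left 0 lower and 0, 0, 0 and 1 higher. They included the dim probe sets of Tgfb2, a ligand of the pathway, with -0.66, -0.61, -0.70 and -0.73, and Ccn1, a matrix-associated target, with -0.93, -1.07, -1.16 and -1.02, each called at each time. In the fit with the control set term neither was called at any time.

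**Figure D5:**
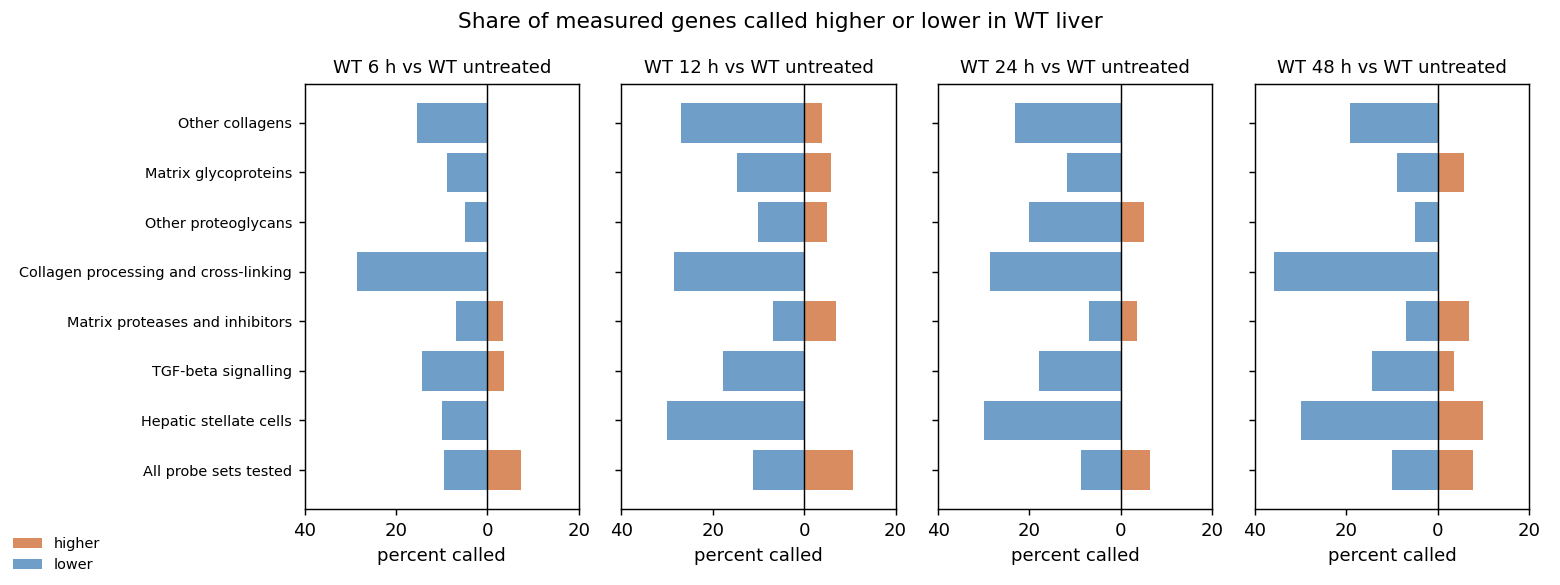
Percent of measured genes of each list called lower (blue, to the left) or higher (orange, to the right) in WT liver at each time after MMS against WT untreated, with all 12422 probe sets at the bottom, in the fit without the control set term. Collagen processing genes reach 4 or 5 of 14 lower at each time, beside 8.67% to 11.2% of all probe sets.

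In untreated liver some other matrix genes were called between the genotypes, and most of those called were lower in Aag. The direction of calls over all probe sets is not given for this comparison, so this direction is not set apart from the array as a whole. Among the other collagens 2 of 26 were lower in Aag than in WT, as were 3 of 34 glycoproteins and 2 of 14 collagen processing genes, with 0 higher in these lists. The 29 proteases and inhibitors gave 2 lower (Mmp13, Adamts1) and 2 higher (Adam10, Timp2), the 28 TGF-beta genes 3 lower and 1 higher, and the 20 other proteoglycans 0. Over all probe sets 9.36% were called in this comparison, which 2 of 26 and 3 of 34 do not exceed. With the control set term 1, 1, 1 and 2 genes of the collagens, glycoproteins, processing genes and proteases were lower, and 0 were higher in the matrix and TGF-beta lists. The WT untreated arrays are the reference here and in each WT comparison after MMS, so calls shared between these are not separate findings. Mmp13 averaged 3.08 in untreated WT, 2.14 in untreated Aag, and 2.09, 2.06, 2.00 and 2.07 in WT at 6, 12, 24 and 48 h. Between the untreated genotypes Mmp13 differed by -0.93 (SE 0.11, limma adjusted p = 2.2e-05) and by -0.80 with the control set term (limma adjusted p = 0.000791). Serpinh1 differed by -0.51 (SE 0.12, limma adjusted p = 0.00878) and by -0.58 with that term (limma adjusted p = 0.0197). The higher Dcn of untreated Aag liver stood beside lower values of these genes. Of 10 stellate cell markers and 7 portal fibroblast markers 0 were called between the genotypes. With 9.36% of all probe sets called, 0 calls in lists this short are not a result about these cells. Of 9 Kupffer cell and macrophage markers Cd5l was called higher in Aag (1.05). Of 9 endothelial markers Cd93 was called higher (0.33) and Flt1 lower (-0.52).

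Markers of hepatic stellate cells were followed beside the matrix genes. Of 14 listed 10 were measured, none was at 0, and 5 lay above the array median on at least 2 arrays, namely Des, Reln, Pdgfra, Gfap and Nes. In WT, 1, 3, 3 and 3 of the 10 were called lower and 0, 0, 0 and 1 higher at 6, 12, 24 and 48 h. Over all probe sets 8.67% to 11.2% were lower and 6.44% to 10.6% higher at these times. Des was lower at each time, the listed Reln probe set and Pdgfra were lower from 12 h on, and Rgs5 was higher at 48 h. The listed Reln probe set has the suffix _r, so it was designed under relaxed rules. Another Reln probe set correlated with Dcn at 0.78 over the 28 arrays. Its differences after MMS are not given here, so the lower Reln is a result of the listed probe set only. Des, the intermediate filament of stellate and muscle cells, averaged 4.34 at 12 h and 4.86 untreated (-0.52, SE 0.13, limma adjusted p = 0.00715). The control set term gave -0.60 (limma adjusted p = 0.136), and 0 of the 10 were then called.

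In Aag the summed linear signal of the 10 stellate cell markers was 193 to 215 untreated and 148 to 204, 182 to 186, 185 to 198 and 202 to 205 at 6, 12, 24 and 48 h. In WT it was 216 to 260 untreated and 157 to 249, 183 to 198, 172 to 185 and 171 to 188 at these times, so the WT arrays at 6 h overlapped the untreated ones and those at later times lay below them. The list's median log2 difference in WT was positive at each time, at 0.11, 0.18, 0.05 and 0.08, while most of its called members were lower, and with the control set term it was 0.03, -0.07, -0.12 and -0.04. The sum over 9 markers of Kupffer cells and macrophages was 491 to 699 in untreated Aag and 399 to 563 in untreated WT. In WT it was 380 to 396, 312 to 419, 371 to 410 and 468 to 472 at 6, 12, 24 and 48 h. Of these 9, C1qa, Clec4f and Csf1r were called lower in WT at 12 h, beside 11.2% of all probe sets. With the control set term none of the 9 was called lower (limma adjusted p = 0.232, 0.843 and 0.701 for these genes). At 6 h C1qa was called lower (-0.70) and Cd68 higher (0.79) in WT, and neither was called with the term. At 24 h and 48 h none of the 9 was called. The part of these cell markers in the Col3a1, Sparc and Dcn values was not tested.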

How the data were processed

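The authors deposited 1 value per probe set and array. The sources used here do not give how images were read, probes summarized or arrays scaled. The deposited values ran from 0.689 to 13.16 and were taken to be log2. Of 12488 probe sets 66 controls were left out, and 12422 were quantile normalized because array medians spanned 0.215. Symbols came from the platform annotation (1 symbol for 10833 probe sets, several for 396, none for 1193), and 10817 identifiers were found in the reference with 0 symbols changed.

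Comparisons used limma 3.58.1 under R 4.3.3. All 28 arrays entered 1 fit with a mean for each group, which left 18 residual degrees of freedom, and the prior variance followed the mean level. Adjustment was by Benjamini-Hochberg within each comparison. Replicates were not paired. Lists used the brightest probe set of a gene, and up to 3 called genes of each list with the smallest adjusted p in a comparison could be named. The genes, lists and alternatives were chosen with earlier results of these data known. Fits were tested on simulated arrays. Figures used Python 3.11.15 and matplotlib 3.10.9.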

Additional observations from a re-analysis of the deposited data

Results flagged for a closer look

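In Aag liver at 24 h after MMS, Timp3 had 4.35 in replicate 1, against 3.78 to 3.88 in the other 3 arrays. The gap to the nearest array was 0.839 of the group's range, above Dixon's limit for 4 arrays. Such a test was made in 28 groups of probe set and group, and chance alone gives about 1 in 20. The array is 1 of the 3 with high Cyp2b9. Replicate 2 of the same group also had high Cyp2b9 (8.22), and its Timp3 lay among the other 3 arrays. The part of what goes with high Cyp2b9 in the Timp3 value was not tested.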

How the results depend on the processing

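Precision is limited by groups of 2 to 4 arrays. The 8 calls in WT after MMS became 15 with array medians centred, 3 with array weights, 5 with only the groups compared in the fit and 1 with the control set as a term, and 6 to 11 with an array left out. With that term Col1a1 103709_at in WT at 12 h was -0.060, and the 1 call was Timp3 at 48 h. Group means of Timp3 in WT were 4.17 at 48 h and 4.00 untreated. The term is estimated partly from Aag untreated replicate 3, where Timp3 was at 5.17 and Cyp2b9 was high. The 0 calls in Aag became 1 with the brightness filter (Col3a1 at 24 h) and 5 with array weights, and 0 to 4 with an array left out, the 4 being without Aag untreated replicate 1. The 1 call of Aag against WT became 2 as deposited, 2 with medians centred and 2 with only the groups compared, and 1 to 2 with an array left out (2 without Aag untreated replicate 4 or WT 6 h replicate 1). The 0 calls for the difference between responses became 1 as deposited and 1 with medians centred, and 0 to 1 with an array left out (1 without WT 6 h replicate 1 or 2). The 0 calls of later times against 6 h became 2 with array weights and 0 to 1 with an array left out (1 without WT 6 h replicate 1 or 2). The cause of these changes was not tested, and the share of all probe sets called under each alternative is not given here. Over the alternatives other than single arrays left out, limma adjusted p for Col3a1 98331_at in WT ran from 0.00121 to 0.467 at 6 h, 0.000355 to 0.206 at 12 h, 0.00168 to 0.229 at 24 h and 0.00329 to 0.283 at 48 h. It ran from 0.00199 to 0.164 for Dcn in WT at 48 h, from 0.00443 to 0.22 for Dcn in untreated Aag against WT, from 0.00531 to 0.355 for Sparc and 0.0107 to 0.926 for Col1a1 in WT at 12 h, and from 0.000472 to 0.672 for Col3a1 102990_at in WT at 6 h. These 9 results kept their sign except Col1a1 with the control set as a term.

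Same-numbered replicates shared only a number, which was taken from the sample titles, since the descriptions repeat number 1 for some Aag arrays at 12 h and 48 h. Deviations from group means had a median correlation of -0.03 over 106 same-numbered pairs and 0.02 over 244 others, and 34 of the 106 were over 0.1. With replicate number as a block the calls were 8 in WT, 0 in Aag, 1 for Aag against WT, 0 for the difference between responses and 0 for later times.

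The comparison within the high control set was chosen after seeing the data.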

Other observations

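Likeness to single genes was computed after their values were seen and is given as a description over 28 arrays. The highest correlations to Col3a1 98331_at were those of Vamp1 (0.86), Acvrl1 (0.84), Tspan3 (0.83) and Cst3 (0.82). The highest to Dcn were those of Aqp1 (0.82), B2m (0.81), Itm2b (0.79) and Reln (0.78). This is another Reln probe set than the one in the list of stellate cell markers. All arrays share the control sets and treatments that set these levels.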
